A study of Mus musculus with 7 samples.

Results

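Exon-class m6A peaks of protein-coding genes are the peaks of regenerating mouse muscle that the authors' table places in an exon, but not in the coding sequence (CDS), a UTR or a start or stop codon, and whose gene has the biotype protein coding. They were chosen by these 2 columns of the table and number 540 of 5412 peaks (9.98%), in 455 of 3983 genes. How the table decided between an exon and the CDS is not given in the sources used here. Of the 540 peaks, 535 were matched by symbol to a gene of the RefSeq annotation of GRCm38.p6, and all 535 of those genes are protein coding there as well. The peak overlaps the span of the matched gene in 530 cases. Positions are given on mm10, the same assembly.

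The peaks come from 4 libraries. An m6A IP library and an input library were made from C57BL/6 METTL3 cKO mice (Pax7CreERT2, METTL3 flox/flox), and the same pair from CTL mice (Pax7CreERT2, METTL3 wt/wt), so that both genotypes carried the Cre driver and received tamoxifen. Muscle was taken at day 2 after cardiotoxin (CTX), a toxin that destroys fibres and sets off regeneration. Pax7CreERT2 removes METTL3 from muscle stem cells only, whereas the RNA of injured muscle also comes from fibres, leukocytes, fibroblasts and vessels. The sample labels give muscle as the source and muscle stem cell as the cell type. In the whole table, a peak was listed on 2 of 7 fibre markers (Des and Ttn), 3 of 5 muscle stem cell markers (Itga7, Myod1 and Pax7), 2 of 5 leukocyte markers, 2 of 4 fibroblast markers and 1 of 3 endothelial markers. These are peaks and not levels of expression. Each peak has 1 fold enrichment, the ratio of IP over input, and not 1 per library or genotype. The list was made for the comparison of the genotypes and so need not hold every peak of the tissue. With 1 library of each kind per genotype there is no replicate check, and the values below are descriptions without a test. The table carries no counts of reads, and the depth behind a peak is therefore unknown.

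N6-methyladenosine (m6A) is placed on mRNA by a complex in which METTL3 is the catalytic subunit, and the adenosine that it methylates is often the A of GGAC. The mark is known to lie mostly in long internal exons and near stop codons. Reader proteins that bind it affect the splicing, export, translation and decay of the mRNA.

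The table lists a GGAC site 1441 times in the exon-class peaks. Sequence was at hand only where a peak crosses a RefSeq promoter window, 250 bases before to 50 bases after a gene's start site. In 25 exon-class peaks of a single block, 2395 bases could be read, and all 15 GGAC found there on the peak's strand were at a position that the table lists. The windows below, on the peak's strand and with 12 bases on each side of the A, are those of 4 genes whose peaks hold several sites or lie at the start of the transcript, with GGAC in capitals. These genes were picked from 7 peaks with a site that could be read with its neighbours, and not by the rule for named genes. The sites of 4930523C07Rik, AI837181 and Mdh2 could be read as well and are not printed. In each of those, GGAC is followed by A, C or T, so the printed sites do not stand for all that could be read. The 6 sites of Casp6, an executioner caspase, are shown because they make up the whole set of a peak of 240 bp and 12.4-fold enrichment. The 3 sites of Sfswap, a splicing regulator, belong to a peak of 1020 bp with 10 sites and 86.1-fold enrichment. Snrpa encodes a protein of the U1 spliceosomal particle (51.9-fold), and Myd88 an adaptor of Toll-like receptors (5.47-fold). The coordinates are those of the letters shown, on GRCm38.p6, with the strand after them.
Casp6 site 1 (chr3:129901447-129901471, plus): ggaaacgggtGGACgagcggaggcc
Casp6 site 2 (chr3:129901471-129901495, plus): ctcagggctaGGACaccggtgggag
Casp6 site 3 (chr3:129901505-129901529, plus): aggtaagtgcGGACacccgtgcgtg
Casp6 site 4 (chr3:129901557-129901581, plus): tggcctccggGGACtgctaggactg
Casp6 site 5 (chr3:129901566-129901590, plus): gggactgctaGGACtgacagaagtg
Casp6 site 6 (chr3:129901604-129901628, plus): gtgcagtgaaGGACgtagcagcggt
Sfswap site 1 (chr5:129501318-129501342, plus): gaggcatcggGGACgttgttcggcc
Sfswap site 2 (chr5:129501350-129501374, plus): agaccgtcccGGACgtcggggacgc
Sfswap site 3 (chr5:129501359-129501383, plus): cggacgtcggGGACgctgtcatgta
Snrpa (chr7:27195829-27195853, minus): tttcctcccgGGACgcctttcgcgc
Myd88 (chr9:119339976-119340000, minus): cgagcgtactGGACggcaccggggg

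The A of the Casp6 sites lies 44 to 201 bases downstream of the nearest RefSeq start site of the gene. The third Casp6 window holds GTAAGT just before its GGAC, the letters with which many introns begin. GTAAGT was searched on the gene's strand and stands in 4.24% of all 32851 promoter windows of 300 bases, and on either strand in 7.65%. GGAC itself stands in 65.6% of those windows on the gene's strand and in 87.7% on either strand, so its presence at a start site is common. The letters next to GGAC varied. In the wider motif known as DRACH, GGAC is followed by A, C or T. Of 15 sites that could be read with their neighbours, 8 were of that form. These 8 include 4 of the 6 of Casp6 and none of the 3 of Sfswap, where G follows. The 15 sites are not the same set as the 15 of single-block peaks above, as they include 1 of AI837181, whose peak has 2 blocks.

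Enrichment spanned 3 orders of magnitude. The median fold enrichment of the exon-class peaks was 13.2 (95% interval of the median 11.1 to 15.7), with quartiles of 5.31 and 47.5 and a range of 1.30 to 1460. At least 10-fold enrichment was found in 305 of the 540 peaks, 56.5% (95% Wilson interval 52.3 to 60.6, covering counting error only), and in 56.6% of all muscle peaks. The 2 shares are nearly equal, so the threshold does not set the class apart. Among protein-coding genes, the median was 26.65 for 1722 CDS peaks (23.8 to 31.0), 9.94 for 2592 peaks of the 3′UTR (9.30 to 10.6) and 9.60 for 277 peaks of the 5′UTR (8.10 to 11.2). The exon-class median lay between that of the CDS and those of the UTRs. At 100-fold or more stood 92 exon-class peaks (17.0%, beside 15.9% of all peaks), and 18 stood under 2-fold.

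Strong peaks were long peaks. The exon-class peaks had a median length, summed over their blocks, of 360 bp (330 to 390), the same as the 360 bp of all peaks, whereas CDS peaks had 600 bp, those of the 3′UTR 300.5 bp and those of the 5′UTR 241 bp. In 4 groups of 131 to 138 peaks by rising fold enrichment, the median length was 209, 270, 449 and 960 bp. At a given length the exon class and the CDS came closer together than over all lengths. Unlike over all lengths, the exon-class median was the higher in each length class. From 200 to 300 bp it was 6.26 beside 5.23 in the CDS, and from 300 to 500 bp 13.8 beside 13.05. Between 500 and 1000 bp the median fold enrichment was 43.3 in 120 exon-class peaks, 43.2 in CDS peaks, 38.1 in those of the 3′UTR and 50.95 in those of the 5′UTR. At 200 bp or less it was 3.90, 3.24, 3.80 and 5.45 in the same order. Above 1000 bp the medians lay further apart, at 181, 141, 117 and 93.95.

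**Figure D1:**
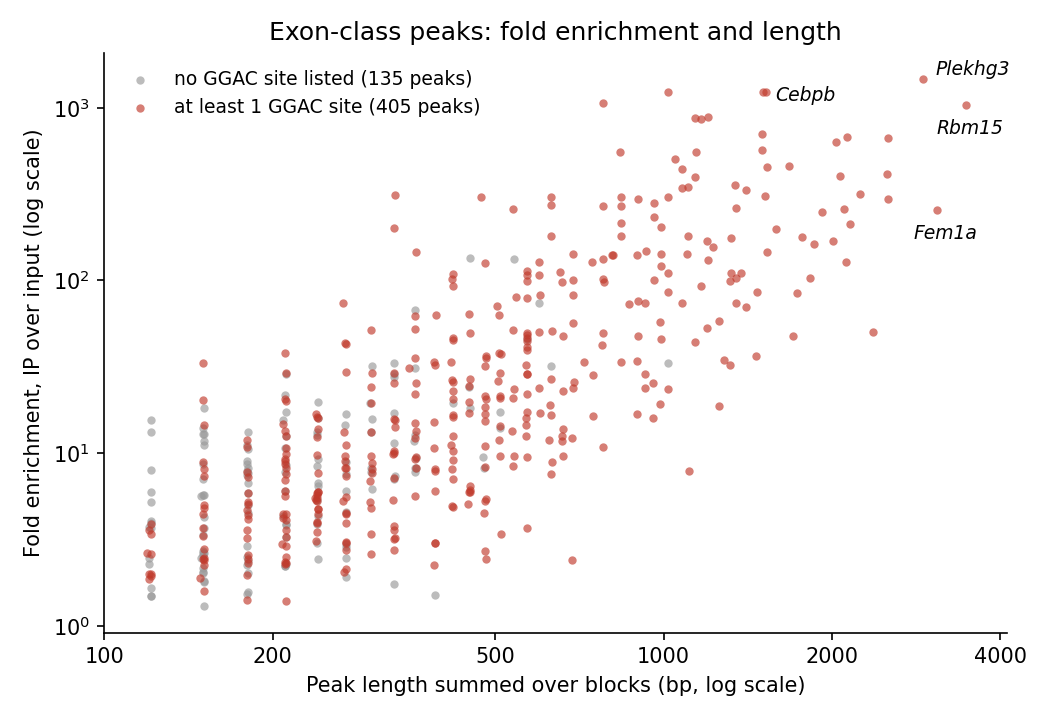
Fold enrichment of IP over input (vertical, log scale) against peak length in bp (horizontal, log scale) for the 540 exon-class peaks, 1 point a peak, with the 135 peaks that list no GGAC site in grey. Fold enrichment rises with length, and the peaks without a site gather at short lengths, with a median of 211 bp against 451 bp for those with a site.

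In 405 of the 540 exon-class peaks, 75% (71.2 to 78.5), the table lists a GGAC site, beside 70.6% of all peaks, 84.6% of CDS peaks (82.8 to 86.2), 62% of peaks of the 3′UTR (60.1 to 63.8) and 69.0% of those of the 5′UTR (63.3 to 74.1). There were 5.03 sites per 1000 bp in the exon class, 5.04 in the CDS, 5.14 in the 5′UTR and 4.12 in the 3′UTR. A single site was listed for 111 exon-class peaks and 10 or more for 23. Peaks with a site had a median fold enrichment of 19.2 and those without one 7.62, but they also differed in length. At 200 bp or less, 42.7% of exon-class peaks held a site (33.6 to 52.4), beside 46.7% in the CDS (40.2 to 53.4) and 28.7% in the 3′UTR (25.2 to 32.5). From 200 to 300 bp the shares were 65.9% (57.2 to 73.6), 70.8% (64.6 to 76.3) and 47.9% (44.2 to 51.6). In both of these length classes the interval of the exon class overlapped that of the CDS and not that of the 3′UTR. From 300 to 500 bp the exon class had 78.3% (70.1 to 84.8), which overlaps both the CDS at 84.3% (79.6 to 88.0) and the 3′UTR at 72.3% (68.4 to 75.8). Above 500 bp the share was 92.4% or higher in each of the 4 classes.

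**Figure D2:**
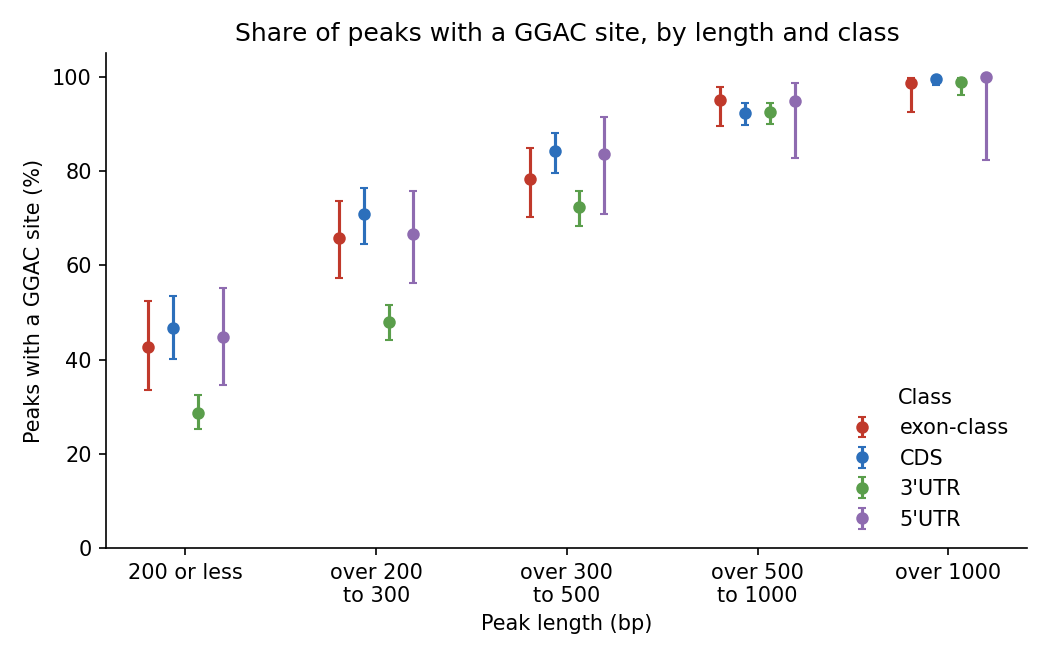
Share of peaks with at least 1 listed GGAC site (vertical, percent) in 5 classes of peak length (horizontal, bp) for the exon class, CDS, 3′UTR and 5′UTR of protein-coding genes, with 95% Wilson intervals. Up to 300 bp the exon class lies with the CDS and 5′UTR, above the 3′UTR, and above 500 bp the 4 classes overlap.

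Coding sequence is read in steps of 3 bases, so the distance between neighbouring sites was divided by 3. In peaks of a single block, 329 of 724 gaps between neighbouring GGAC sites of the exon class were a multiple of 3, which is 45.4% (41.8 to 49.1). The share was 43.9% of 3321 gaps in the CDS (42.2 to 45.6), 34.2% of 2457 gaps in the 3′UTR (32.3 to 36.1) and 32.5% of 255 gaps in the 5′UTR (27.1 to 38.5). With no preference it would be 33.3%. By neighbouring sites the exon class thus lay near the CDS, and both UTR classes near 1 in 3. Gaps of 1 peak are not independent of each other, and this comparison was chosen after the data had been seen. Giving each of the 231 peaks with a gap the same weight left a mean of 44.0%. The share was 49.7% of 342 gaps (44.4 to 55.0) in peaks centred in the first 80% of the gene span and 41.1% of 372 gaps (36.2 to 46.2) in the last 20%. The distance from the first to the last site of a peak, by contrast, was a multiple of 3 in 34.6% of these 231 exon-class peaks (28.8 to 41.0). Among single-block peaks with a gap, the share was 40.2% of 787 in the CDS (36.8 to 43.6). It was 33.9% of 915 in the 3′UTR (30.9 to 37.0) and 34.7% of 95 in the 5′UTR (25.9 to 44.7). By this measure the value of the exon class lay near those of the UTRs, and its interval overlaps those of all 3 other classes.

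**Figure D3:**
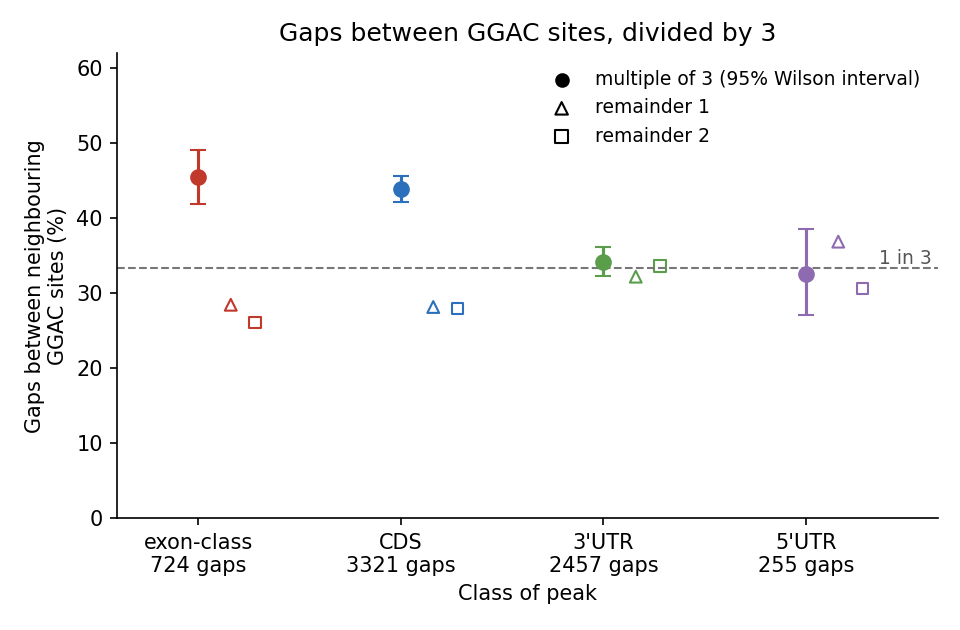
Share of gaps between neighbouring GGAC sites (vertical, percent) that are a multiple of 3 bases (filled circles, 95% Wilson intervals) or leave a remainder of 1 (triangles) or 2 (squares), for the 4 classes (horizontal). In the exon class and the CDS 45.4% and 43.9% of the gaps are multiples of 3, and in the UTR classes the share lies at the dashed line of 1 in 3.

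Single peaks differed widely in this. Exoc8 encodes a subunit of the exocyst, which tethers secretory vesicles to the plasma membrane. Of the 20 sites of its peak (chr8:124895198-124897705, 2508 bp, 412-fold), 19 stood in 1 frame, and 17 of the 19 gaps were multiples of 3. In Cebpb 8 of 9 sites shared a frame, in Fem1a 12 of 19 and in Rbm15 15 of 26. In Dcaf7 none of the 4 gaps was a multiple of 3.

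Toward the 3′ end of genes the exon-class peaks were more frequent. Their median position was at 82.6% of the gene span from the 5′ end, beside 90.7% for all peaks. It was 70.3% for CDS peaks, 96.8% for those of the 3′UTR and 1.08% for those of the 5′UTR. The last 20% of the span held 280 of 530 exon-class peaks (52.8%) and the first 20% held 77 (14.5%). Over all peaks the shares were 64.05% and 10.96%, so the exon class was less weighted to the 3′ end than the whole table. Within 500 bp of the annotated 3′ end lay 14.7% of the exon-class peaks, beside 13.8% of all peaks, 3.47% of the CDS and 21.9% of the 3′UTR. Within 500 bp of the 5′ end lay 6.98% of the exon-class peaks and 6.19% of all peaks. The median fold enrichment of the exon class was 15.95 in the last 20% and 9.90 in the first 20%. Its sites were listed at 6.56 per 1000 bp in the first 20% against 4.78 in the last. With each gene counted once per peak, the median gene span was 18688 bp for the exon class and 32651 bp for all peaks. It was 34215 bp for the CDS class, 37838 bp for the 3′UTR and 32727.5 bp for the 5′UTR. From start to end, 22 of 530 exon-class peaks spanned at least 30% of their gene, introns included. Over all peaks the count was 238 of 5135. It was 163 of 1698 in the CDS, 33 of 2511 in the 3′UTR and 3 of 266 in the 5′UTR. Among the 22 exon-class peaks, that of Cebpb, a gene without introns, covered 99.1% of its 1518 bp.

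**Figure D4:**
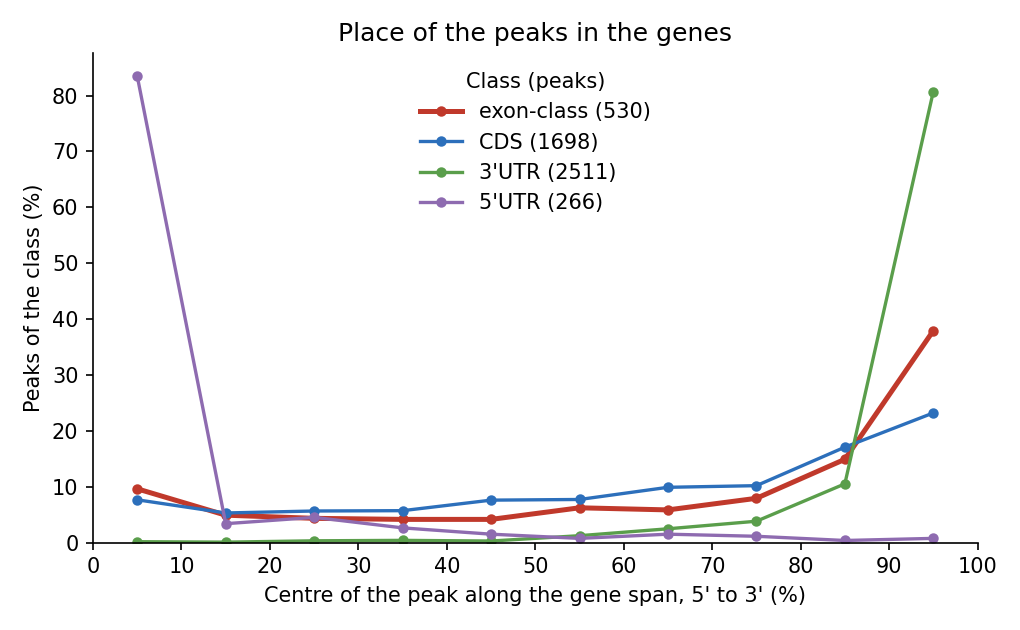
Share of the peaks of each class (vertical, percent) whose centre lies in each step of 10% of the gene span from the 5′ to the 3′ end (horizontal, percent of the span). The last 10% holds 37.9% of the exon-class peaks, 23.2% of the CDS and 80.7% of the 3′UTR, and the exon class also has 9.62% in the first 10%.

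The 10 genes with the highest enrichment came from many functions. Plekhg3, a guanine nucleotide exchange factor, stood first at 1460-fold with a peak of 3 blocks, 2910 bp and 21 sites (chr12:76573275-76579078), and it ranked at place 7 among all 5412 peaks. Rnpepl1, an aminopeptidase, had 2 overlapping peaks of 1240-fold and 1230-fold. Cebpb, a transcription factor of macrophages and of adipose tissue, had 1230-fold (chr2:167688915-167690418, 9 sites). Retreg3, a receptor for the autophagy of the endoplasmic reticulum, had 1070-fold in a peak of only 778 bp.

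Rbm15, the adaptor that brings the m6A writer complex to its targets, had 1040-fold. At 3473 bp and 26 sites its peak was the longest of the class and the richest in sites (chr3:107330201-107333673). Sox9, a transcription factor of cartilage, followed at 885-fold, Gpr146, an orphan G protein-coupled receptor, at 877-fold, and Jade1, a subunit of the HBO1 histone acetyltransferase complex, at 856-fold. Adgrl2, an adhesion receptor of the latrophilin family, had 701-fold and the microtubule-associated Map1s 674-fold with 14 sites. Each of these 10 peaks was at least 778 bp long and held at least 4 sites.

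Among the longest peaks were also Fem1a, a substrate receptor of a cullin ubiquitin ligase, with 3080 bp, 19 sites and 255-fold, Arid5a, which stabilises inflammatory mRNAs, with 2521 bp and 297-fold, and Itpripl2 with 2519 bp and 666-fold. Among peaks at or above the class median of 13.2-fold, those densest in sites were shorter. Below that median Casp6 was denser still, with 25 sites per 1000 bp. Above it, Slc27a1, a fatty acid transporter, had 3 sites in 151 bp (19.9 per 1000 bp, 14.5-fold). Dcaf7, a WD-repeat scaffold, had 5 in 330 bp (201-fold), the telomere-binding Zbtb48 7 in 479 bp (127-fold), Tmem181a 3 in 210 bp (38.1-fold) and cyclin L2, Ccnl2, 5 in 361 bp (147-fold).

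Most genes, 378 of 455, had 1 exon-class peak, 70 had 2 and 7 had 3 or more. Parp10, a mono-ADP-ribosyltransferase, had 3 peaks of 128-, 49.8- and 47.9-fold with 6, 10 and 14 sites, spread from 5.10% to 97.3% of the gene span. Pxn, which encodes paxillin of focal adhesions, had peaks of 32.4-, 4.96- and 2.48-fold. Atp1b2, a subunit of the sodium pump, had 28.8-, 8.25- and 8.16-fold. St6galnac4, a sialyltransferase, had 157-, 8.70- and 3.41-fold. Etv3, an ETS repressor, had 14.3-, 13.2- and 8.24-fold, and Plekho2 had 6.70-, 6.45- and 1.97-fold. The 4 peaks of Prob1 were 2 pairs that overlap, at 29.1- and 28.8-fold and at 17.4- and 17.1-fold. In Pxn, St6galnac4 and Atp1b2 the strongest peak stood far above the others of the gene, and in Etv3 and Plekho2 the values were closer.

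Genes with an exon-class peak less often had a listed peak of another class than genes of the 3 other classes. The intervals given here do not overlap, but they cover counting error only, and the gene sets share members. The difference is therefore a description of this list and not a test. Of the 455 genes, 53 (11.6%, 9.02 to 14.9) also had a peak of another class, 33 in the 3′UTR, 22 in the CDS and 5 in the 5′UTR. The share of genes with a listed peak of another class was 26.2% for CDS genes (24.0 to 28.6), 20.1% for 3′UTR genes (18.5 to 21.9) and 51.3% for 5′UTR genes (45.4 to 57.1). In 32 of these 53 genes the exon-class peak was the stronger. Examples were picked after the values were seen. In Lifr, the receptor of leukemia inhibitory factor, the exon-class peak had 503-fold and that of the 3′UTR 4.50-fold, and in Adar, an adenosine deaminase of double-stranded RNA, they had 135- and 4.95-fold. In Zfp503, a zinc finger gene, the exon-class peak had 12.6-fold and the CDS peak 1090-fold.

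Of the 21 listed writers, readers and erasers of m6A, 8 had a peak of any class and 3 an exon-class peak, beside 455 of 3983 genes (11.4%) in the table. Besides Rbm15, the nuclear reader Ythdc1 had a peak of 297-fold (899 bp, 5 sites) and a weak one of 1.51-fold, which overlaps a long non-coding RNA of the same strand, and the reader Igf2bp2 had 8.77-fold. These 4 values are too far apart for a median to describe them. Over all classes, the 10 peaks of the list had a median of 33.0-fold.

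The gene lists are sets of symbols and do not hold every gene of a function, so the counts given for them are over the listed symbols. Of 60 listed splicing factors and regulators 32 had any peak, and 10 of these (31.2%) had an exon-class peak. The share over all genes with a listed peak was 11.4%. The 12 exon-class peaks of the list ran from 1.65- to 31.2-fold with a median of 12.1. At least 10-fold enrichment was found in 7 of the 12, beside 56.5% of the class and 56.6% of all muscle peaks. Higher values were found in splicing genes outside the list, for example with 108- and 86.1-fold in Sfswap and 51.9-fold in Snrpa. These examples are not a full count of such genes. Within the list Srsf3, an SR protein, stood highest at 31.2-fold, followed by the kinase of SR proteins Clk2 at 22.0, the regulator Tra2a at 16 and the kinase Clk1 at 14.0. No site was listed in the peaks of Srsf3, Tra2a and Clk1, and 3 in that of Clk2.

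Of the listed innate immune and macrophage genes with any peak, 7 of 21 (33.3%) had an exon-class peak, beside 11.4% of all genes. They had 9 such peaks in all, between 2.44- and 1230-fold with a median of 5.47. Below Cebpb stood Tnfaip3, which restrains NF-kappaB, at 199- and 4.42-fold, the chemokine Cxcl10 at 73.9-fold and the chemokine receptor Ccr2 at 16.5-fold. Myd88 had 5.47- and 2.44-fold, the interferon regulator Irf7 5.02-fold and the leukocyte phosphatase Ptprc (CD45) 3.28-fold. Ptprc was 1 of 2 leukocyte markers with any peak. No exon-class peak was listed on the 2 fibre, 3 muscle stem cell, 2 fibroblast and 1 endothelial markers with any peak. With so few markers, and 11.4% over all genes, these counts do not set a cell type apart.

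**Figure D5:**
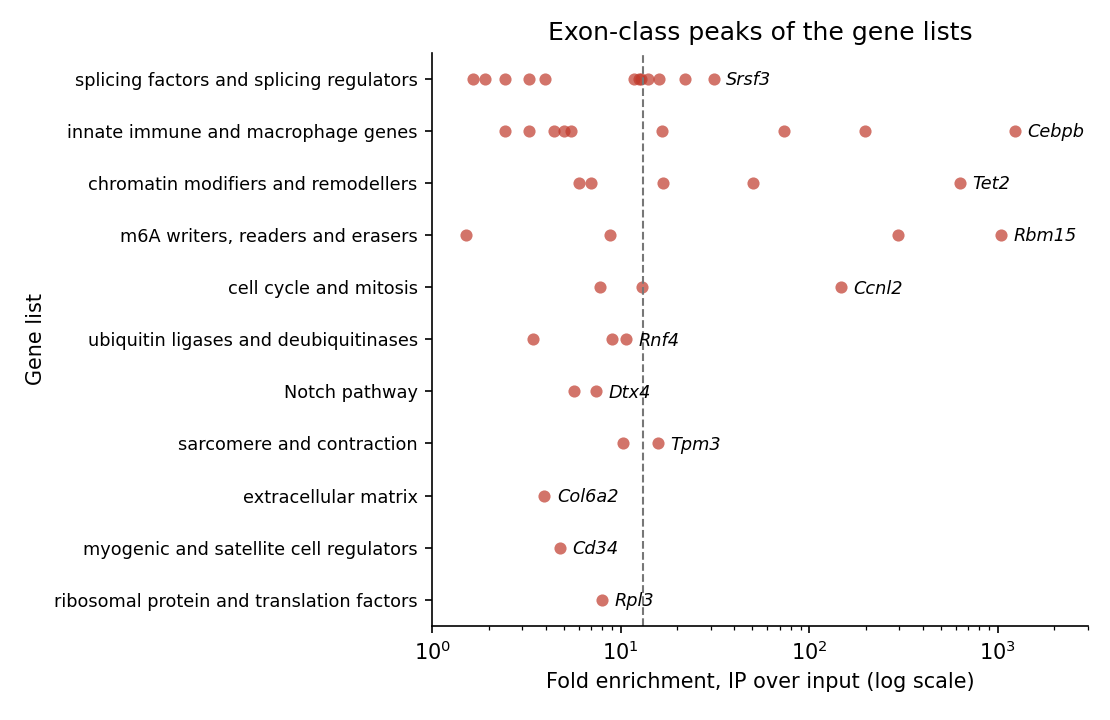
Fold enrichment of IP over input (horizontal, log scale) of the exon-class peaks of 11 gene lists (vertical), 1 point a peak, with the gene of the strongest peak named and the class median of 13.2 as a dashed line. Immune, chromatin and m6A genes reach from under 10-fold to over 600-fold, while the 12 peaks of the listed splicing genes stay at or under 31.2-fold.

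Of the listed chromatin modifiers with any peak, 4 of 35 (11.4%) had an exon-class peak, beside 11.4% of all genes with a listed peak. Jade1, given above, is not on that list, nor is the BAF subunit Smarcd3 with 571-fold. The cytosine dioxygenase Tet2 had 631-fold and its relative Tet3 50.1-fold, the histone methyltransferase Setdb1 had 16.7-fold and the deacetylase Hdac5 had 6.97- and 6.00-fold. Of 16 genes of the cell cycle list with any peak, 3 had an exon-class peak. They were the L cyclins Ccnl2 at 147-fold and Ccnl1 at 12.9-fold, and Cdk2 at 7.80-fold. A place on this list does not show that a gene acts in the cell cycle.

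In the Notch pathway, which keeps muscle stem cells quiescent and which the study followed, 2 of 14 listed genes with any peak (14.3%) had an exon-class peak. For this list and those below, the share over all genes with a listed peak was 11.4%. The Deltex ligase Dtx4 had 7.38-fold and the Numb relative Numbl 5.64-fold, both under the median of 33.55-fold that the 20 peaks of the pathway had over all classes. The list of myogenic and satellite cell regulators had 1 of 10, the surface protein Cd34 at 4.76-fold. The sarcomere list had 2 of 16, the tropomyosin Tpm3 at 15.7-fold and the Z-disc protein Pdlim7 at 10.3-fold. The extracellular matrix list had 1 of 22, collagen VI Col6a2 at 3.94-fold, and the list of ribosomal and translation genes had 1 of 9, Rpl3 at 7.95-fold. Outside that list, the ribosomal protein genes Rpl10a and Rps24 had exon-class peaks of 9.60- and 5-fold. The ubiquitin list had 2 of 26, the ligase Rnf4 at 10.7- and 3.41-fold and the deubiquitinase Uchl5 at 9-fold, whereas genes outside it, the deubiquitinase Otud4 and the ligase Rnf139, had 86.1- and 73.8-fold. None of 18 genes of the insulin, mTOR and FoxO list had one. Genes of such functions outside the lists did, among them Akt1s1 of the mTOR pathway at 70.2-fold. The matrix genes Ecm2 and Adamts2 had 102- and 2.14-fold, and the myogenic cofactor Mamstr 73.9- and 24-fold. These examples were picked after the values were seen and are not a full count.

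Some rows share bases with others. Within a gene, 8 pairs of exon-class peaks overlap, and joining all exon-class peaks that share a base on 1 strand leaves 529 regions. A peak of a gene on the opposite strand overlaps 17 exon-class peaks, and in 16 of these the fold enrichments were within 1.5 times of each other. The exception was Htra2 at 15.2-fold against Loxl3 at 26.5-fold. As an example picked after the values were seen, Slc15a3, a peptide transporter, had 178-fold where Tmem132a on the other strand had 178-fold. Whether the strand of the reads was used in counting is not given in the sources used here, so these genes cannot be told apart by the table.

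In C2C12 myoblasts, a mouse line from muscle that grows in culture, the authors listed peaks by position only. The sample labels give the 2 IP libraries of C2C12 the genotype Knockout and the input Normal, without naming the gene, so the state of METTL3 in these cells is not settled by the labels. After leaving out 3 genes whose symbols had turned into dates, 197 of 452 genes with an exon-class peak in muscle also had a peak in C2C12, 43.6% (39.1 to 48.2). The share was 49.4% for CDS genes (46.8 to 52.0), 38.2% for 3′UTR genes (36.1 to 40.3) and 39.2% for all genes. The strongest exon-class peak in muscle had a median of 26.8-fold in the 197 shared genes and 11.2-fold in the 255 others. Their expression was not measured here, and its part in this was not tested. Of the 10 genes with the highest enrichment in muscle, 6 were shared. Rbm15 had 3 C2C12 peaks, all annotated to an exon or coding sequence, Map1s had 2 and Gpr146 1 of the same kind, Cebpb had 2, and Rnpepl1 and Sox9 had 1 each in the 3′UTR.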

How the data were processed

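m6A MeRIP-Seq was made on poly(A) RNA, fragmented with ZnCl2, with stranded libraries. The submitters' processing notes name TopHat, MACS2 and mm10, without versions. The authors deposited 1 muscle table, with the fold enrichment of each peak as a ratio of IP over input and its p-value, listed as 0 for 74 exon-class peaks. Further columns hold the log2 fold, p and FDR of the authors' own comparison of the genotypes and were not used. The C2C12 list gives positions only, on another build, and was compared by gene name. Value columns of single samples left out numbered 0.

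Starts were made 1-based, and length is the sum of the blocks. Genes were matched to RefSeq by symbol or by a synonym of a single gene, and sequences are from RefSeq promoter windows (GRCm38.p6). Listed GGAC positions were checked there: 118 of 118 held GGAC in single-block peaks, but 6 of 21 in minus-strand peaks of several blocks, so distances between sites use single-block peaks. Intervals are Wilson for shares and from order statistics for medians, at 95%. Python 3.11.15, pandas 2.3.3, numpy 2.4.6, scipy 1.17.1 and matplotlib 3.10.9 were used, and the functions were tested on simulated data.

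The named peaks are the 10 highest in fold enrichment (1 a gene), the 5 longest, the 5 with most sites, the 5 densest at or above the median enrichment, genes with 3 or more peaks, and genes of 12 lists (for lists of over 8, the 4 highest). The members and lists were chosen with earlier results of these data known. Depth is unknown.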

Additional observations from a re-analysis of the deposited data

How the results depend on the processing

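With 1 library of each kind per genotype, no result has a replicate check, and 14 of 24 alternatives stayed within the interval of the reported value or within 1.5 times of a count. The others moved as follows. The median fold enrichment of 13.2 became 15.9 with the strongest peak of each gene and 9.95 without p-values listed as 0. The share of 56.5% at 10-fold or more became 61.8% with 1 peak a gene, 76.7% at a threshold of 5-fold and 39.8% at 20-fold. At or above the median enrichment of all peaks (12.9), the median length of 360 bp became 584.5 bp, the share with GGAC of 75% became 86.5%, the share of genes with another class fell from 11.6% to 5.91%, and the share of genes in the C2C12 list rose from 43.6% to 52.6%. The share of gaps that are multiples of 3, whose alternatives were chosen after seeing the data, was 45.7% without zinc finger genes, 43.9% without peaks of 10 or more sites and 45.6% without overlapping peaks, but 34.6% from the first to the last site of a peak. The causes were not tested. No paired analysis was possible because each genotype has 1 library of each kind.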

Other observations

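Gene families that belong to no list above were counted from the descriptions in the table. Of all genes in the table, 11.4% had an exon-class peak. Zinc finger genes had an exon-class peak in 21 of 191 genes with any peak (11%), and their 24 exon-class peaks had a median of 32.7-fold, beside 27.75-fold for all 274 zinc finger peaks. Solute carriers had one in 13 of 62 genes (21.0%), with a median of 17.1-fold over 19 peaks, beside 15.4-fold for all 84 solute carrier peaks. Of 7 histocompatibility 2 genes with any peak, 4 had an exon-class peak, and their 7 peaks ranged from 2.61- to 359-fold, with a median of 8.10, beside 11.85 for all 10 peaks of the family. Some H2 genes are similar in sequence, so reads may be shared among them, which was not tested.

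The centre that the table gives for a peak lies outside every block in 19 of 89 exon-class peaks of several blocks, beside 1 of 444 CDS peaks of several blocks. Of the matched peaks, 5 lie outside the RefSeq span of their gene. Smarcd3, a subunit of the BAF chromatin remodeller, had 571-fold in such a peak, 98 bp past the annotated 3′ end. Those of Smpd2 and Htra2 lay within 200 bp of the gene, that of Mrps24 7770 bp away and that of Teddm2 48706 bp away.

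Rows of the genes Rbm4 and Gm21992 share bases on 1 strand at 2 places, with 8.25- and 7.65-fold at the first and 5.70-fold in both rows at the second. The same was found for A830010M20Rik and Gm42669 at 39.6- and 41.4-fold.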
